A study of Mus musculus with 10 samples.

Results

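The ERBB receptor tyrosine kinases, an adaptor, a feedback inhibitor and a gene lying beside Erbb2 were examined in mammary tumours of mice. They comprise the receptors Erbb2, Egfr, Erbb3 and Erbb4, and Grb7, Mien1 and Errfi1. The 7 genes were found by exact symbol among the 26063 genes of the deposited count table. Each had 1 entry, and each passed the filter on low counts that left 14915 genes to test. RNA was sequenced from tumours of 10 female FVB/N mice taken at end point and frozen. The tumours came from 5 mice labelled 16IC/WT and 5 labelled EIC/WT. All 10 mice had received doxycycline at 2 mg/ml, so no group was without it. The labels do not spell out 16IC and EIC, and they name neither the promoter of a transgene nor its source species, while the series' title names HER2∆16 and ENPP1. HER2∆16 is a splice form of human ERBB2 without exon 16. No untreated tumour or normal mammary gland was analysed here, so each value for 16IC tumours is set against EIC tumours.

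Receptors of this family sit in the cell membrane and signal as pairs. Ligands such as EGF and amphiregulin bind Egfr, neuregulins bind Erbb3 and Erbb4, and Erbb2 has no known ligand of its own and acts as the partner of the others. In the mammary gland, Egfr takes part in the growth of the ducts and Erbb4 in alveolar differentiation and lactation, and amplified ERBB2 defines a class of human breast cancer in which ERBB3 is a main partner. Grb7 is an adaptor that binds the activated receptors through its SH2 domain. Errfi1, also called Mig6, binds the kinase domain of Egfr and its relatives and inhibits it. Mien1 encodes a small membrane-anchored protein linked to cell migration in human cancer cells, and its human counterpart is amplified together with ERBB2 and GRB7.

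In the GRCm38 genome, Erbb2 lies on the plus strand at chr11:98412470-98437716. Mien1 lies tail to tail with it on the minus strand at chr11:98437708-98438991, and Grb7 follows on the plus strand at chr11:98446394-98455373. Egfr is on the same chromosome but far away, at chr11:16752203-16918158 on the plus strand. Erbb3 is at chr10:128567523-128589652 and Erbb4 at chr1:68032186-69108059, both on the minus strand, and Errfi1 is at chr4:150853919-150868892 on the plus strand. All 7 are protein-coding, and counts are over the whole exonic length of a gene, which is 5210 bases for Erbb2, 747 for Mien1 and 12355 for Erbb4.

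Exon 16 of mouse Erbb2 is shown first, since the study is named for HER2∆16. It was not compared here with the human exon that HER2∆16 lacks. In a GENCODE transcript of mouse Erbb2 with 27 exons, exon 16 spans chr11:98431717-98431764 on the plus strand and is 48 bases long, the only exon of that transcript with this length. It codes for part of the receptor just outside the membrane. Capitals mark the exon and lower-case letters the 20 bases on each side of it in the spliced transcript, which belong to the neighbouring exons.
Erbb2 exon 16: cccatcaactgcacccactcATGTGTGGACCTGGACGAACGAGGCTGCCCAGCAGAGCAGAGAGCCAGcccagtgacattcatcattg
The exon makes up 0.921% of the counted length of Erbb2. A count per gene therefore cannot show whether transcripts carried it, and the share of transcripts without it was not analysed here.

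The promoters of Erbb2 and Mien1 are shown because these genes end on the same bases and yet differed in how they varied between tumours. They are from RefSeq on GRCm38.p6 and cover 250 bases before to 50 after the annotated start. The Erbb2 window is chr11:98412234-98412533 on the plus strand and the Mien1 window is chr11:98438939-98439238 on the minus strand. Capitals mark CCAAT boxes (CCAAT on either strand) and an E-box (CACGTG).
Erbb2 promoter: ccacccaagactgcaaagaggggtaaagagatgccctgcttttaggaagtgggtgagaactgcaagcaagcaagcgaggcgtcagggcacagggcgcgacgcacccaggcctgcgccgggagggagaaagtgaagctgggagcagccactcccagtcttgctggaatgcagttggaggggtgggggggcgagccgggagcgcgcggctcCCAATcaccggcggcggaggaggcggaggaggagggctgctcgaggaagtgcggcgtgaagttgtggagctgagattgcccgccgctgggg
Mien1 promoter: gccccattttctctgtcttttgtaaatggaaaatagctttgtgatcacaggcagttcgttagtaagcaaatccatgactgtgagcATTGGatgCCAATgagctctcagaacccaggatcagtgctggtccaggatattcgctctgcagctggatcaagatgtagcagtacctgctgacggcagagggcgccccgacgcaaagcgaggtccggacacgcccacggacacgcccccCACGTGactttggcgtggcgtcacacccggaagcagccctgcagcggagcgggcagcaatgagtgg
Erbb2 held 1 CCAAT box, and Mien1 held 2 CCAAT boxes on opposite strands and 1 E-box. Both strands were searched, and none of these motifs overlapped. Neither window held a GC box, searched as GGGCGG. Nor did either hold a TATA box, searched as TATAAA, or a cyclic AMP response element, searched as TGACGTCA. Over the 32851 promoters of the RefSeq table, 37.4% held a CCAAT box and 7.15% this E-box. A GC box was in 35.7%, a TATA box in 13.6% and a cyclic AMP response element in 1.79%. Promoter sequences matched 5 of the 7 genes, all but Erbb3 and Grb7.

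Depth was even, with 14813940 to 16947400 counts per library. Each library correlated with the others at a median Spearman rho of 0.9117 to 0.937 over the tested genes, and no library stood far apart by this measure. EIC 2 and EIC 3 were the only libraries whose closest library came from the other genotype, with a rho of 0.9338 for EIC 2 and 0.937 for EIC 3. Summed levels of 8 luminal epithelial markers were 3897 to 5791 CPM (counts scaled to library size) in 16IC tumours and 4093 to 6425 CPM in EIC tumours. Those levels go with the labelled mammary tissue, although Krt19 was at 0 in some libraries. Tumour numbers only name animals within a genotype and pair nothing.

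No difference between genotypes passed the test for any of the 7 genes. By edgeR's quasi-likelihood test with Benjamini-Hochberg adjustment over all tested genes, 0 of the 7 had an adjusted p under 0.05, against 0% of all 14915. By DESeq2 the count was also 0 of 7, against 2.11% of 16838 genes with an adjusted p, and at an unadjusted edgeR p under 0.05 it was 1 of 7, against 13.1%. That 1 gene was Mien1. Levels were nominally higher in 16IC tumours for 6 genes and lower for Errfi1, with a median log2 difference of 0.21, beside -0.02 over all genes tested. The 2 genotypes overlapped for all 7 genes, where 2.59% of tested genes showed no overlap, 1.42% with 16IC above EIC and 1.17% with 16IC below.

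**Figure D1:**
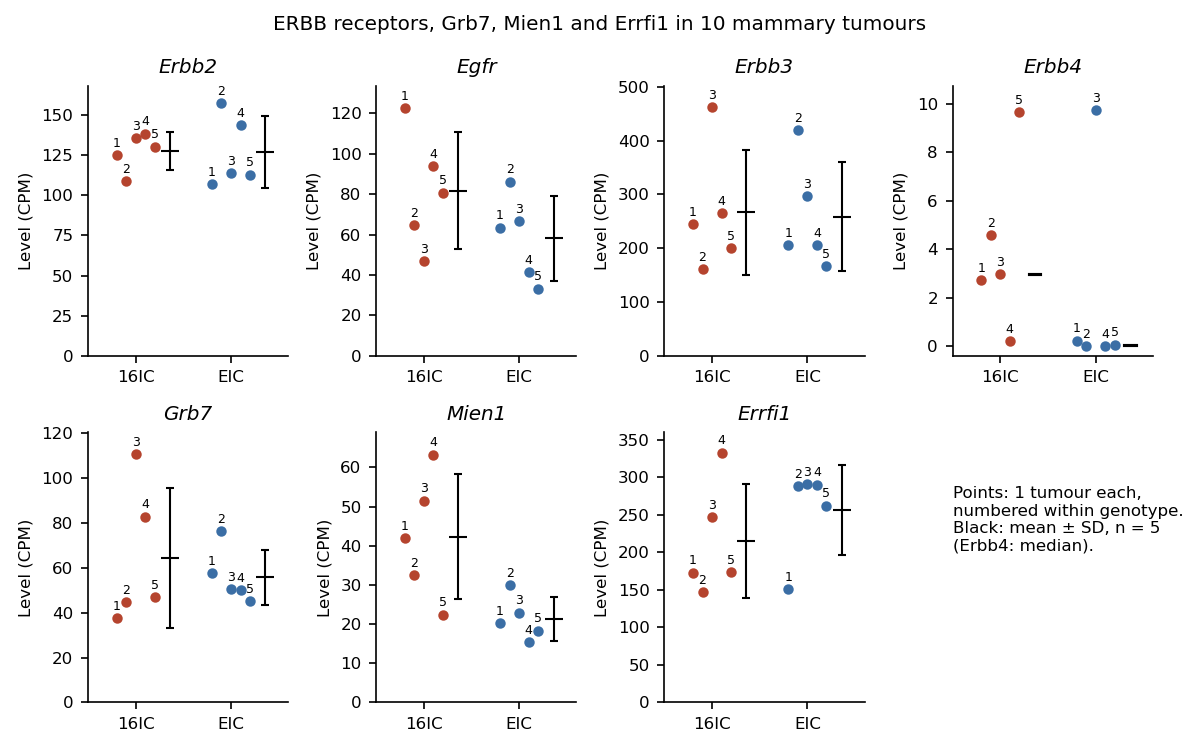
Levels in CPM (vertical axes, a scale of its own for each gene) of the 7 genes in 16IC tumours, at left in red, and EIC tumours, at right in blue. Numbers name the tumours and black marks are means ± SD (n = 5), or the median for Erbb4. Erbb2 stayed within 107 to 157.4 CPM over all 10 tumours, and Mien1 was at or above 32.48 CPM in 4 of the 5 16IC tumours and at or below 29.99 CPM in every EIC tumour.

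Erbb2 was the steadiest of the 7 genes. In 16IC tumours 1 to 5 it had 124.9, 108.6, 135.6, 138.4 and 130.3 CPM, and in EIC tumours 1 to 5 it had 107, 157.4, 113.7, 143.6 and 112.8 CPM. The 16IC values lay inside the range of the EIC values. The means were 127.6 ± 11.8 CPM in 16IC and 126.9 ± 22.2 CPM in EIC tumours (SD, n = 5 each). The log2 difference of 16IC over EIC was 0.01 (SE 0.14, 95% interval -0.30 to 0.32, edgeR adjusted p = 0.991). Its sign turned under scaling by the upper quartile or by total counts. The biological coefficient of variation, edgeR's estimate of the spread between tumours of a genotype, was 21% for Erbb2. Only 7.36% of tested genes had a smaller one. Whether reads of a transgene enter this count depends on its sequence and was not tested.

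Erbb3, which has a weak kinase and signals through its partner, had the highest counted level of the mouse receptor genes. In 16IC tumours 1 to 5 it had 245.2, 160.5, 461.8, 264.6 and 200.2 CPM, and in EIC tumours 205.1, 418.9, 296.1, 206 and 166.4 CPM. One tumour of each genotype, 16IC 3 and EIC 2, stood above the others. The remaining 8 overlapped, at 160.5 to 264.6 CPM in 16IC and 166.4 to 296.1 CPM in EIC tumours. The log2 difference was 0.04 (SE 0.33, 95% interval -0.68 to 0.76, edgeR adjusted p = 0.964), which also turned sign under scaling by total counts. Each marker list was scored per tumour as the mean log2 level of its genes. Every r with markers uses this score and not the summed CPM. Across the 10 tumours, Erbb3 was lower where fibroblast markers were higher (Pearson r = -0.81, permutation p = 0.00197, adjusted p = 0.0454 over 56 relations of genes to marker lists, Spearman rho = -0.79). Without 16IC 3 and EIC 1, r was -0.815. The r of Erbb3 was negative for all 8 lists, among them -0.80 for endothelial, -0.75 for adipocyte, -0.715 for luminal, -0.68 for basal and -0.64 for leukocyte markers. The endothelial r was -0.241 without 16IC 3 and EIC 2, and its rho over all 10 tumours was -0.50. Without the 2 tumours farthest from the median of each list, the other lists named so far ran from -0.62 for basal to -0.853 for leukocyte markers. The r was weaker for skeletal muscle (-0.109, and -0.311 without 2 tumours) and skin keratinocyte markers (-0.233, and -0.111 without 2 tumours). No difference between lists was tested. The 7 fibroblast markers summed to 387.4 to 3304 CPM in 16IC tumours and 1707 to 6568 CPM in EIC tumours, with none at 0. In whole tumours, fewer cells of a type and less RNA per cell cannot be told apart, and the part of these cell types in the Erbb3 level was not tested.

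Egfr values leaned higher in 16IC tumours, within the spread between tumours. It had 122.6, 64.79, 46.82, 93.91 and 80.68 CPM in 16IC tumours 1 to 5, and 63.41, 86.12, 66.64, 41.26 and 33.25 CPM in EIC tumours. The highest value was that of 16IC 1 and the lowest were those of EIC 4 and EIC 5, with overlap between. Means were 81.8 ± 28.8 CPM in 16IC and 58.1 ± 21.1 CPM in EIC tumours (SD, n = 5 each). The log2 difference was 0.49 (SE 0.31, 95% interval -0.19 to 1.17, edgeR adjusted p = 0.496), and an exact two-sided permutation test over all arrangements of the tumours gave p = 0.175. With 5 tumours against 5 the smallest p of this exact test is 0.00794.

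Erbb4 had at most 4 counts in 4 of 5 EIC tumours and varied more than any other of the 7 genes. In 16IC tumours 1 to 5 the raw counts were 38, 77, 49, 3 and 165, which correspond to 2.733, 4.573, 2.976, 0.2053 and 9.66 CPM. In EIC tumours 1 to 5 the raw counts were 4, 0, 163, 0 and 1, corresponding to 0.231, 0, 9.742, 0 and 0.06013 CPM. A count of 0 allows up to 3 counts, or 0.178 CPM in EIC 2 and 0.187 CPM in EIC 4, for counting error only. 4 of the 5 16IC tumours were above 2.7 CPM, whereas in EIC only tumour 3 was, at a level close to that of the highest 16IC tumour. The log2 difference was 1.0 (SE 1.48, 95% interval -2.28 to 4.29, edgeR adjusted p = 0.78, exact two-sided permutation p = 0.143). Without EIC 3 it was 5.61 by edgeR, which did not pass, and 5.76 by DESeq2, which did (adjusted p = 1.1e-04), and without 16IC 5 it was 0.38 by edgeR. With all 10 tumours, limma voom with quality weights gave 4.10 (adjusted p = 0.213). The biological coefficient of variation of Erbb4, 165%, was larger than that of 99.7% of tested genes. Skeletal muscle markers summed to 0.911 to 283.1 CPM in 16IC tumours, and to 2.032 CPM in EIC 3 and 120.0 to 1933 CPM in the other EIC tumours. Erbb4 and these 4 markers had an r of -0.75 over the 10 tumours (permutation p = 0.0167, adjusted p = 0.104, rho = -0.73). Myh4 was at 0 in some libraries, and the part of muscle in the Erbb4 level was not tested.

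Grb7, the adaptor, had 37.41, 44.6, 110.7, 82.75 and 47.01 CPM in 16IC tumours 1 to 5 and 57.46, 76.22, 50.56, 50.06 and 44.98 CPM in EIC tumours. The EIC tumours lay inside the range of the 16IC tumours, of which 16IC 3 and 16IC 4 were above all EIC tumours. The log2 difference was 0.21 (SE 0.30, 95% interval -0.46 to 0.87, edgeR adjusted p = 0.777). Grb7 was lower where the 4 endothelial markers were higher (r = -0.89, permutation p = 0.00164, adjusted p = 0.0454, rho = -0.69). Without 16IC 3 and EIC 2, r was -0.675. The r of Grb7 was negative for 7 of the 8 lists, with -0.77 for fibroblast markers (permutation p = 0.00975, adjusted p = 0.091, and -0.77 again without 16IC 3 and EIC 1) and -0.52 to -0.55 for luminal, basal and adipocyte markers. Without 16IC 3 and 16IC 4, r was -0.0929 for basal and 0.0632 for adipocyte markers. For luminal markers it was -0.249 without 16IC 4 and EIC 2. The endothelial markers summed to 60.79 to 170.3 CPM in 16IC tumours and 97.86 to 172.2 CPM in EIC tumours with none at 0, and the part of these cell types in the Grb7 level was not tested.

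Mien1, the gene that overlaps the end of Erbb2, showed the smallest p of the 7. It had 41.87, 32.48, 51.5, 63.25 and 22.42 CPM in 16IC tumours 1 to 5 and 20.21, 29.99, 22.89, 15.35 and 18.28 CPM in EIC tumours. 4 of the 5 16IC tumours were above every EIC tumour, and 16IC 5 fell among the EIC tumours. Means were 42.3 ± 15.9 CPM in 16IC and 21.4 ± 5.56 CPM in EIC tumours (SD, n = 5 each), a log2 difference of 0.99 (SE 0.28, 95% interval 0.36 to 1.61). The unadjusted edgeR p was 0.0053, and 0.286 after adjustment over all genes, which did not pass. The exact two-sided permutation p was 0.0238, with no adjustment. DESeq2 gave an adjusted p of 0.0617, and the authors' deposited table lists the same value with a log2 fold change of 0.99. With single tumours left out, DESeq2 put Mien1 past the threshold without 16IC 2 (adjusted p = 0.0479), without 16IC 5 (0.00697) and without EIC 2 (0.0151), while edgeR did so in none of the 10 fits.

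Marker scores of most other cell types and of luminal epithelium ran against Mien1, with a negative r for all 8 lists. The r was -0.82 for luminal (adjusted p = 0.0669 over the permutation tests of the 56 relations), -0.74 for adipocyte, -0.73 for leukocyte and -0.67 for fibroblast markers. It was weaker for skeletal muscle (-0.285) and skin keratinocyte markers (-0.152). The luminal score and sum ranked tumours differently. Of the 16IC tumours, 16IC 3 had the highest sum, 5791 CPM, with a score of 7.805, and 16IC 2 had the highest score, 8.848. The lowest score of all was 7.224 in 16IC 4, with a sum of 5004 CPM. No r with the sums was computed. Basal and myoepithelial markers gave the one r of Mien1 that passed after adjustment. Their 7 genes summed to 33.59, 98.64, 28.91, 21.9 and 197.2 CPM in 16IC tumours 1 to 5 and to 651.3, 38.47, 143.5, 299.8 and 202.2 CPM in EIC tumours. The 16IC tumour with the most of them, 16IC 5, had the least Mien1 of its genotype, and the EIC tumour with the fewest, EIC 2, had the most Mien1 of its genotype. Over the 10 tumours the r of Mien1 with basal markers was -0.86 (permutation p = 0.00243, adjusted p = 0.0454, rho = -0.92). It was -0.74 without 16IC 3 and 16IC 4, and -0.815 after each genotype was centred on its mean. Krt5, Krt14 and Krt17 were at 0 in some libraries, and the score of the list gave an exact permutation p of 0.103 between genotypes. No difference between the lists was tested, nor was the part of any of these cell types in the Mien1 difference.

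The Mien1 count is uncertain in its strand. The strand setting of the counting is not stated in the labels or the file. Mien1 shares 281 exonic bases, 37.6% of its length, with the antisense gene Gm12352, and 9 bases (chr11:98437708-98437716) with Erbb2. Gm12352 itself had 0.463 ± 0.185 CPM in 16IC and 0.547 ± 0.217 CPM in EIC tumours (SD, n = 5 each). The 9 shared bases are 1.2% of the length of Mien1 and 0.173% of that of Erbb2. No other of the 7 genes shared exonic bases with another gene of the annotation.

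Errfi1, the inhibitor, was the one gene of the 7 with a lower mean in 16IC tumours. It had 172.8, 146.9, 246.8, 332.9 and 173.9 CPM in 16IC tumours 1 to 5 and 151.2, 288, 290.8, 290.1 and 262.3 CPM in EIC tumours. EIC 2 to EIC 5 lay close together and EIC 1 lay far below them, near the lowest 16IC tumours, while 16IC 4 was the highest of all. The log2 difference was -0.26 (SE 0.26, 95% interval -0.83 to 0.32, edgeR adjusted p = 0.667, exact two-sided permutation p = 0.357).

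**Figure D2:**
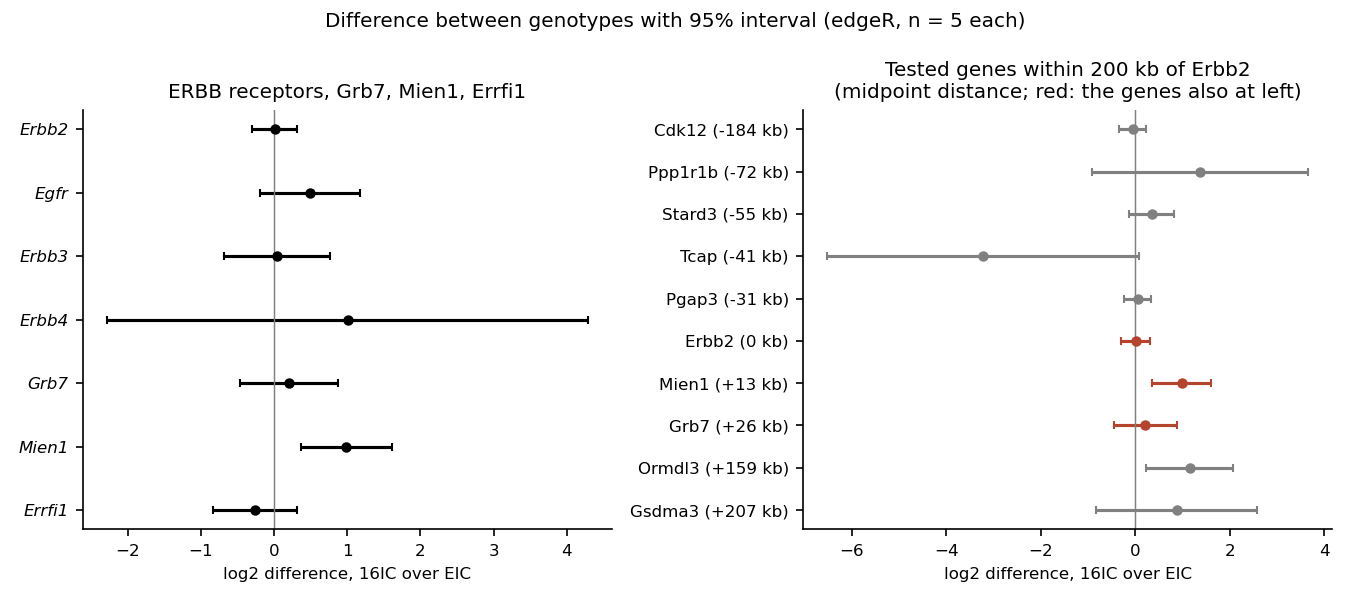
Log2 difference of 16IC over EIC (horizontal axes) with its 95% interval from edgeR (5 tumours each), for the 7 genes at left and for the tested genes within 200 kb of Erbb2 at right, in genome order with the distance between midpoints. The intervals of Mien1 and Ormdl3 lie above 0 without adjustment, and that of Erbb4 is the widest of the 7 genes at left.

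To compare genes with each other, levels were expressed per length, as CPM per kilobase of the gene length in the table (RPKM). The median RPKM over the 10 tumours was 71.1 for Errfi1, 37.5 for Erbb3, 35.4 for Mien1, 24.5 for Erbb2, 14.95 for Grb7, 5.80 for Egfr and 0.12 for Erbb4. Erbb3 and Mien1 did not differ beyond their spread, with Erbb3 higher in 7 of 10 tumours (exact paired sign permutation p = 0.641, adjusted p = 0.641 over 6 neighbouring pairs). The pair stood differently in the genotypes. Mien1 was the higher one in 3 of the 5 16IC tumours (median 56.0 RPKM, against 40.8 for Erbb3), and Erbb3 was higher in all 5 EIC tumours (median 34.2 RPKM, against 27.1 for Mien1). Each other neighbouring pair kept its order in at least 9 of 10 tumours with adjusted exact permutation p from 0.00585 to 0.014. The pairs and their order were taken from these same tumours, so these p-values give no independent support for the order. Egfr ranked sixth and Erbb4 seventh in all 10 tumours. Errfi1 ranked first in 7 tumours, Mien1 in 16IC 1 and 16IC 2, and Erbb3 in 16IC 3.

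**Figure D3:**
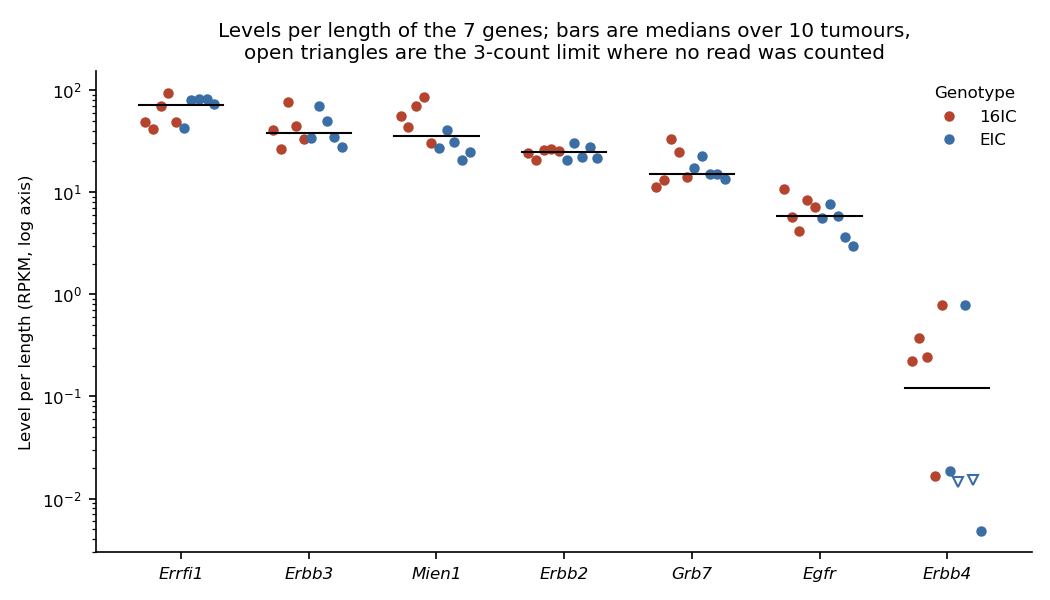
Level per length (RPKM, log axis) of the 7 genes in 16IC tumours, red, and EIC tumours, blue, ordered by their median over the 10 tumours (black bars). Open triangles mark the limit of 3 counts where no read was counted. The medians run from 71.1 RPKM for Errfi1 to 0.12 RPKM for Erbb4.

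Among the counts of the 4 mouse receptor genes, Erbb3 was the highest per length in all 10 tumours. Whether reads of a transgene enter the Erbb2 count was not tested, so the shares hold for these counts only. Its share of the 4 receptors had a median of 53.8% (49.8% to 71.6%) in 16IC and 56.6% (52.3% to 64.8%) in EIC tumours. Erbb2 followed with 33.7% (24.3% to 38.9%) in 16IC and 34.1% (28.1% to 42.1%) in EIC tumours. Egfr made up 10.7% (3.86% to 14.3%) in 16IC and 7.08% (5.57% to 9.29%) in EIC tumours. Erbb4 never exceeded 1.18%, with medians of 0.292% in 16IC and 0.00931% in EIC tumours. The genotypes overlapped in all 4 shares.

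**Figure D4:**
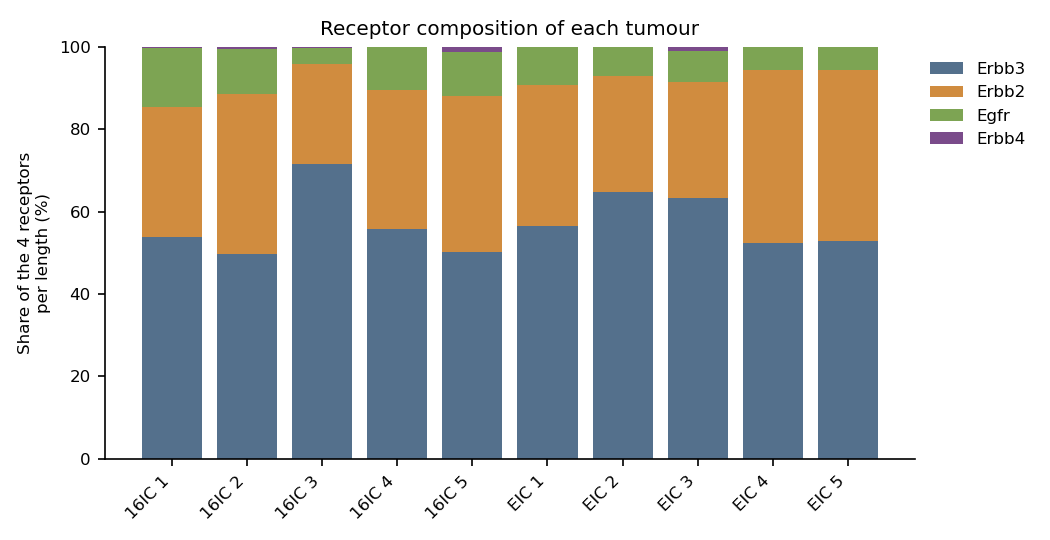
Share of each receptor in the summed RPKM of the 4 mouse receptor genes (vertical axis, percent) in each tumour, 16IC at left and EIC at right. Erbb3 is the largest share in all 10 bars, from 49.8% in 16IC 2 to 71.6% in 16IC 3, and Erbb4 is at most 1.18%.

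Ratios between genes of the same tumour were then compared, since they do not depend on the scaling of libraries. Those to Erbb2 use its count, in which the part of transgene reads was not tested. The 9 ratios per length were tested with the exact two-sided permutation test, and none passed after adjustment over the 9. The Erbb3 to Erbb2 ratio had the same median in both genotypes, 1.66 in 16IC (1.28 to 2.95) and 1.66 in EIC (1.24 to 2.3), with a difference of 0.01 in log2 (exact permutation p = 0.937). The Egfr to Erbb2 ratio had medians of 0.285 in 16IC (0.159 to 0.451) and 0.252 in EIC tumours (0.132 to 0.273), a log2 difference of 0.48 (exact p = 0.135, adjusted p = 0.202). Erbb3 over Egfr was 4.67 (3.76 to 18.6) in 16IC and 9.15 (6.09 to 9.42) in EIC tumours (log2 difference -0.47, exact p = 0.302, adjusted p = 0.388). The difference was -0.88 without 16IC 3 and -0.30 without 16IC 1, and passed in neither case. 4 of the 5 16IC tumours were below every EIC tumour in this ratio, and 16IC 3 was above all of them.

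The inhibitor to receptor ratio, Errfi1 over Egfr, had medians of 7.17 (4.46 to 16.7) in 16IC and 13.8 (7.54 to 24.9) in EIC tumours (log2 difference -0.78, exact p = 0.135, adjusted p = 0.202). Grb7 over Erbb2 was 0.636 (0.464 to 1.26) in 16IC and 0.689 (0.54 to 0.832) in EIC tumours (log2 difference 0.09, exact p = 0.762). Mien1 over Erbb2 was 2.34 (1.2 to 3.19) in 16IC and 1.32 (0.747 to 1.41) in EIC tumours. Its log2 difference was 0.91, with an exact permutation p of 0.0317 and an adjusted p of 0.202. As for the Mien1 level, 16IC 5 was the tumour that fell among the EIC tumours. The 3 ratios of Erbb4 to the other receptors differed by 3.24 to 3.72 in log2, with exact p from 0.0873 to 0.135 and an adjusted p of 0.202 each. They rest on counts at or near 0 and on the prior of 0.5 counts.

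**Figure D5:**
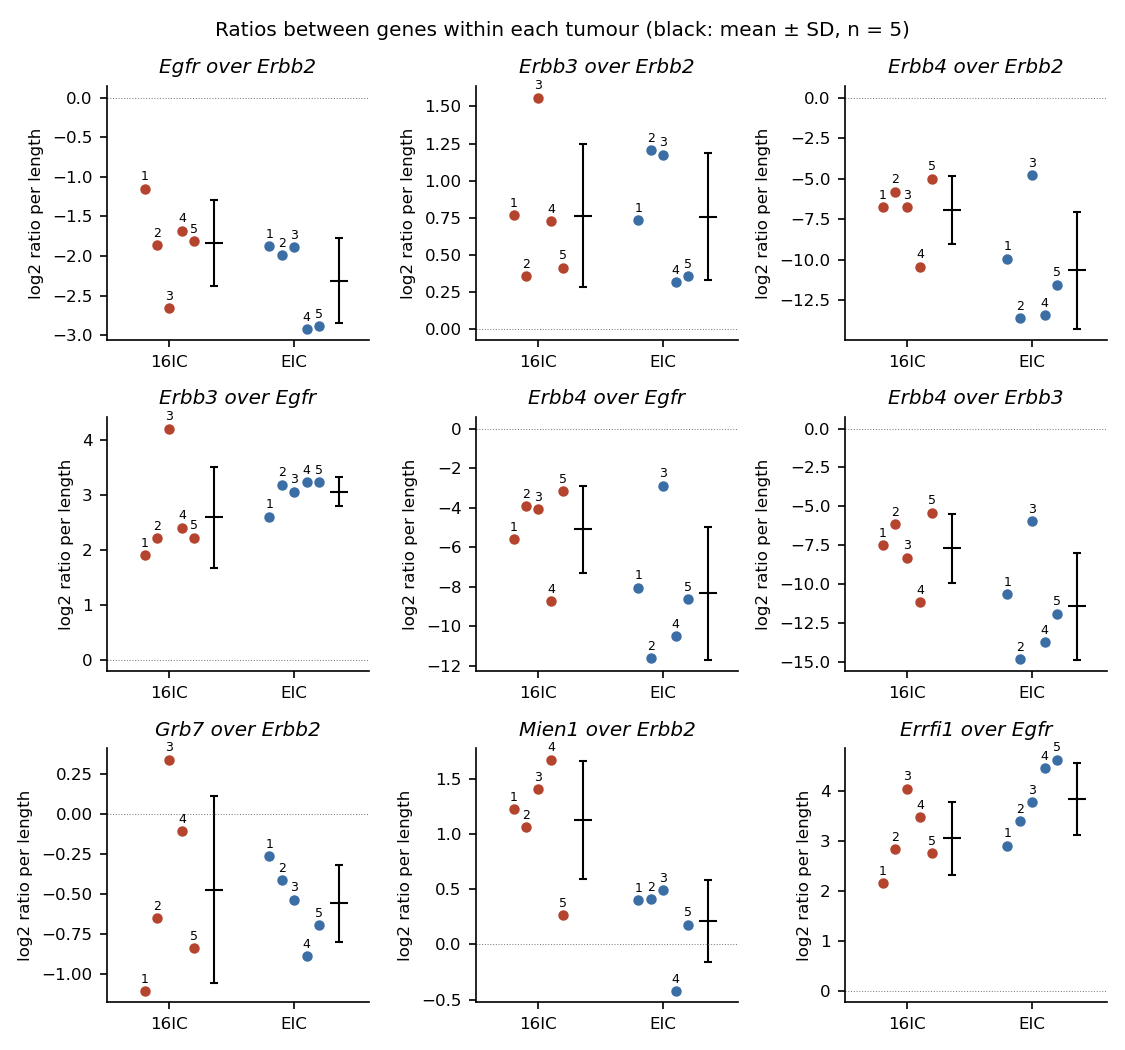
The 9 log2 ratios per length within each tumour (vertical axes, a scale of its own for each ratio), 16IC in red at left and EIC in blue at right, with tumour numbers and mean ± SD (n = 5). Dotted lines mark equal levels. In Mien1 over Erbb2, 16IC 1 to 4 lie above all EIC tumours and 16IC 5 among them, and in Erbb3 over Egfr, 16IC 3 lies above all other tumours.

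Relations between the neighbours on chromosome 11 across the 10 tumours did not pass the test. Erbb2 and Mien1 had an r of 0.26 (permutation p = 0.454, rho = 0.20), and 0.21 without EIC 1 and EIC 2. Erbb2 and Grb7 had an r of 0.51 (permutation p = 0.131, rho = 0.46, without EIC 1 and EIC 2 0.51). Grb7 and Mien1 had 0.54 (permutation p = 0.106, rho = 0.31), and 0.68 after each genotype was centred on its mean. Without 16IC 3 and 16IC 4 the r was -0.19, so its sign depended on those 2 tumours. The strongest of the 21 relations was that of Erbb3 with Grb7, at 0.77 (permutation p = 0.0108, adjusted p = 0.227 over the 21, rho = 0.72). It was 0.77 after each genotype was centred on its mean and 0.37 without 16IC 3 and EIC 2, so its size depended in part on those 2 tumours. Erbb2 and Erbb3 had 0.61 (permutation p = 0.0618, rho = 0.61, without EIC 1 and EIC 2 0.43). No relation among the 7 genes passed after adjustment.

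Within 200 kb of Erbb2 the table held 20 genes, 3 of them Erbb2, Mien1 and Grb7. Of the other 17, 7 were tested, of which 5 were nominally higher and 2 lower in 16IC tumours, with a median log2 difference of 0.34. None passed by edgeR, and 0 were higher by DESeq2, against 0.843% of genes. On the higher side 1 of 7 had an unadjusted edgeR p under 0.05, against 6.84% of tested genes. That gene was Ormdl3, a regulator of sphingolipid synthesis, with 233.7 ± 149.6 CPM in 16IC and 104.8 ± 27.5 CPM in EIC tumours (SD, n = 5 each). Its log2 difference was 1.16 (SE 0.42, edgeR adjusted p = 0.314). Its r with Mien1 over the 10 tumours was 0.81, against 0.09 with Erbb2. Tcap, which encodes a protein of the muscle sarcomere, had 1.87 ± 3.07 CPM in 16IC and 17.2 ± 20.2 CPM in EIC tumours (log2 difference -3.21, SE 1.49, edgeR adjusted p = 0.388). The muscle markers given beside Erbb4 bear on this gene too, and their part was not tested. Stard3 and Pgap3, 2 further genes of the human ERBB2 amplicon, had 61.0 ± 19.2 and 33.1 ± 4.30 CPM in 16IC tumours, against 48.0 ± 6.12 and 31.9 ± 3.12 CPM in EIC tumours.

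Ligands start the signal by binding Egfr, Erbb3 or Erbb4. Of 11 EGF-family ligands, 10 were tested, 3 nominally higher and 7 lower, with a median log2 difference of -0.65. By edgeR 0 passed after adjustment and 3 had an unadjusted p under 0.05 on the lower side, against 6.29% of tested genes. By DESeq2 2 fell, against 1.27% of genes. They were Hbegf, a ligand of Egfr and Erbb4, with 11.8 ± 4.35 CPM in 16IC and 44.1 ± 20.1 CPM in EIC tumours (log2 difference -1.91, SE 0.36, edgeR adjusted p = 0.186, DESeq2 adjusted p = 2.5e-04), and Ereg. Ereg, or epiregulin, which binds the same receptors, had 0.244 ± 0.247 CPM in 16IC and 1.93 ± 1.18 CPM in EIC tumours (log2 difference -2.93, SE 0.78, edgeR adjusted p = 0.261, DESeq2 adjusted p = 0.00968). Its 16IC mean lay near the limit of 3 counts, which was 0.176 to 0.216 CPM in the 16IC libraries, so the size of this difference is uncertain. Hbegf passed by DESeq2 in all 10 fits without 1 tumour, and Ereg in 8, with the call lost without EIC 1 or EIC 5.

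Adaptors and effectors carry the signal into the cell. All 31 in the list were tested, 12 nominally higher and 19 lower, with a median log2 difference of -0.06, and 0 passed by edgeR or DESeq2. Unadjusted edgeR p-values were under 0.05 for 3 of 31 on the higher side, against 6.84% of tested genes, and for 4 of 31 on the lower side, against 6.29%. Stat5b, a transcription factor of mammary differentiation, had 136.8 ± 32.5 CPM in 16IC and 88.4 ± 20.7 CPM in EIC tumours (log2 difference 0.63, SE 0.20, edgeR adjusted p = 0.29). Shc1, the adaptor that links the receptors to Ras, had 121.2 ± 16.7 CPM in 16IC and 168.9 ± 38.2 CPM in EIC tumours (log2 difference -0.48, SE 0.17, edgeR adjusted p = 0.309).

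Among 20 negative regulators and trafficking genes, 19 were tested, 6 nominally higher and 13 lower, with a median of -0.05. By edgeR 0 passed after adjustment, and 1 of 19 had an unadjusted p under 0.05 on the higher side, against 6.84% of tested genes, and 3 of 19 on the lower side, against 6.29%. By DESeq2 2 of 19 fell, against 1.27% of genes. Sh3kbp1, also called CIN85, binds Cbl proteins and takes part in the uptake of Egfr. It had 31.6 ± 9.20 CPM in 16IC and 59.2 ± 8.41 CPM in EIC tumours without overlap (log2 difference -0.91, SE 0.20, edgeR adjusted p = 0.249, DESeq2 adjusted p = 0.00773). Cblb, a ubiquitin ligase that acts on Egfr, had 15.0 ± 2.62 CPM in 16IC and 33.3 ± 15.7 CPM in EIC tumours (log2 difference -1.15, SE 0.33, edgeR adjusted p = 0.286, DESeq2 adjusted p = 0.0491). By DESeq2 Sh3kbp1 passed in all 10 fits without 1 tumour, and Cblb only without 16IC 5 or EIC 2.

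Of 13 receptor partners and sheddases, all tested, 1 was nominally higher and 12 were lower in 16IC tumours, with a median log2 difference of -0.17. By edgeR 0 passed after adjustment and 4 of 13 had an unadjusted p under 0.05, all on the lower side, against 6.29% of tested genes. By DESeq2 1 of 13 fell, against 1.27% of genes with an adjusted p, and Muc4, 1 of the 13, had none. For 2 of 13 all 16IC tumours were below all EIC tumours, against 1.17% of tested genes. Hsp90ab1, a chaperone on which Erbb2 depends, had 2070 ± 68.8 CPM in 16IC and 2800 ± 317 CPM in EIC tumours without overlap (log2 difference -0.44, SE 0.15, edgeR adjusted p = 0.294, DESeq2 adjusted p = 0.0178). The DESeq2 call held in 4 of the 10 fits without 1 tumour, those without 16IC 5, EIC 2, EIC 3 or EIC 5. Adam17, the protease that releases several EGF-family ligands, had 92.3 ± 15.9 CPM in 16IC and 126.3 ± 6.53 CPM in EIC tumours, also without overlap (log2 difference -0.45, SE 0.13, edgeR adjusted p = 0.286, DESeq2 adjusted p = 0.0718).

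Genes whose levels followed each of the 7 most closely were ranked by Pearson r of log2 CPM over the 10 tumours, among 14226 genes with a mean of at least 1 CPM. They are given as a description, since all share the same libraries. Erbb2 was followed by Gpalpp1 (r = 0.902), Spata9 (0.901) and Thumpd1 (0.891), and Egfr by Nfatc2 (0.913), Thbs4 (0.912) and Rtl6 (0.901). Erbb3 was closest to Alms1 (0.960), Klhdc1 (0.953) and AW549877 (0.949), and Erbb4 to Lurap1 (0.923), Gprin2 (0.914) and Pus1 (0.889). Grb7 was closest to Ccdc77 (0.951), Dmac2 (0.949) and Metrnl (0.934), Mien1 to Bag4 (0.974), Tvp23b (0.969) and Uck1 (0.966), and Errfi1 to Rbbp7 (0.904), Cwc27 (0.897) and Gm5555 (0.896). None of the 7 genes was among the 3 closest of another.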

How the data were processed

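RNA-seq was made from mammary tumours of 10 mice, each tumour from a separate animal, with RNeasy extraction and the NEBNext Ultra II kit per the labels' protocols. The submitters' processing notes name the genome GRCm38 (mm10) and the tools STAR, Trimmomatic, HTSeq, limma and edgeR, without versions. No source used here states the strand setting, the handling of multi-mapping reads or the annotation release. The deposited table gives raw counts per gene, which were used here. The authors also deposited normalized counts, a signal equal to counts divided by 1 factor per library, and FPKM values, both only checked. Their log2 fold changes and p-values were printed for Mien1 only, per the authors' deposited table.

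Counts were tested with edgeR 4.0.16 in R 4.3.3 (TMM, filterByExpr with a minimum count of 10, robust quasi-likelihood test, threshold 0.05 after Benjamini-Hochberg adjustment), 16IC over EIC with no covariate. DESeq2 1.42.0 and limma 3.58.1 (voom with quality weights) were alternatives, as were other scalings, other filters and each tumour left out. CPM are TMM-scaled, log2 CPM has a prior count of 2, and ratios a prior of 0.5 counts. The score of a marker list is the mean over its genes of log2 of CPM plus 0.5. Ratios were tested by exact permutation, relations with 100000 permutations (scipy 1.17.1). The floor of 3 counts covers counting error only. The scripts were tested on simulated data.

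The 7 genes, lists, rules and tests were chosen with earlier results of these data known. Named besides the 7 were, per gene list, genes called by edgeR or DESeq2 and the 2 with the smallest edgeR p, and the 3 genes most like each of the 7. Stard3 and Pgap3 were added after their values were seen.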

Additional observations from a re-analysis of the deposited data

Results flagged for a closer look

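In 32 groups of 5 tumours (levels and ratios of the 7 genes, by genotype), 4 held a tumour whose gap to its nearest neighbour was more than 0.71 of the group's range, the 95% critical value. Chance gives about 1 in 20 groups. Erbb4 in EIC 3 was 9.742 CPM, with a gap of 0.976 of the range. Errfi1 in EIC 1 was 151.2 CPM, the lowest of its genotype (0.796). The log2 ratio of Erbb3 over Egfr was 4.214 in 16IC 3, the highest of its genotype (0.785), and 2.606 in EIC 1, the lowest of its genotype (0.728).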

How the results depend on the processing

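Over 234 alternative values of the differences (by edgeR, DESeq2 or limma) and ratios (exact test) of the 7 genes, 215 kept their direction and 0 passed the threshold. Those that turned were the differences of Erbb2, Erbb3 and Grb7 and the ratios of Erbb3 and Grb7 to Erbb2. DESeq2 entered these 234 values with all 10 tumours only. In its 10 fits without 1 tumour, which were not among the 234, Mien1 passed in 3 and Erbb4 in 1. Erbb2 was -0.0058 under upper-quartile scaling, and under total-count scaling Erbb2 was -0.045 and Erbb3 -0.017. With each tumour left out, the log2 difference ranged from -0.0497 to 0.10 for Erbb2, from -0.25 to 0.29 for Erbb3 and from -0.0767 to 0.36 for Grb7. By DESeq2, chosen for this after the data were seen, it ranged from -0.046 to 0.096 for Erbb2, from -0.24 to 0.29 for Erbb3 and from -0.0696 to 0.35 for Grb7. The log2 ratio of Erbb3 over Erbb2 ranged from -0.19 to 0.12 and that of Grb7 over Erbb2 from -0.12 to 0.24. Among the other differences and ratios, which kept their sign, those that moved by over 1.5 times were Egfr (0.31 without 16IC 1), Errfi1 (-0.46 without 16IC 4, -0.40 without EIC 1, -0.15 without 16IC 2), Egfr over Erbb2 (0.31 without 16IC 1), Erbb3 over Egfr (-0.88 without 16IC 3, -0.30 without 16IC 1) and Erbb4 (5.61 without EIC 3, 0.38 without 16IC 5, 4.10 by limma voom), and none passed by these fits. By edgeR 0 genes passed in all, and 0 to 2 with 1 tumour left out. DESeq2 called 356, and 178 without 16IC 4 to 839 without EIC 2. The cause of this gap between tools was not tested. Relations that changed sign were Egfr with Grb7 (0.0148), Egfr with Errfi1 (0.0424), Grb7 with Mien1 (-0.193) and Mien1 with Errfi1 (-0.42) without the 2 tumours farthest from the median, Erbb3 with Erbb4 (-0.013) and Erbb4 with Mien1 (-0.34) after centring on each genotype, and Erbb3 with Erbb4 (-0.0151) under total counts. No paired analysis was possible because each tumour came from a separate animal and the labels pair no 16IC tumour with an EIC tumour. Depth limits Erbb4, with at most 4 counts in 5 of the 10 libraries.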
